A study of Mus musculus with 6 samples.

Results

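Rods and cones are the light-sensing neurons of the retina, and the genes described here are 36 that they use to take on their identity, to detect light and to build their outer segments. Of these genes, 34 were measured by at least 1 transcript cluster (a group of array probes that covers a transcript) annotated to that gene alone, out of 23410 clusters tested. Where a gene had several clusters, as Cngb1 with 4 did, the cluster with the highest mean over the 6 arrays stood for it. Nr2e3 and Guca1b were not analysed here.

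Retinae came from newborn mice (postnatal day 0) of the C57BL/6NTac background, in 2 groups. The first held 3 arrays of Meg2 knockout mice, labelled as lacking the protein tyrosine phosphatase encoded by Ptpn9, and the second 3 arrays of Meg2 wild-type mice. The protocol pools both retinae of an animal, but both arrays of replicate 2 carried Xist together with Y-linked signal (values below), which goes against 1 animal per array there. The labels call the samples of a genotype biological replicates numbered 1 to 3. The labels do not give the deleted part of the gene, and Ptpn9 read 9.31, 9.58 and 9.28 log2 units on the knockout arrays against 10.05, 9.93 and 9.94 on the wild-type arrays (difference -0.58, SE 0.087; limma, adjusted p = 0.437). All knockout arrays lay below all wild-type arrays for this gene.

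Postmitotic photoreceptor precursors are specified by transcription factors such as CRX and NRL, which then switch on the genes of phototransduction. In phototransduction an opsin activates the G protein transducin, transducin activates phosphodiesterase 6, and the fall in cyclic GMP closes a cation channel in the outer segment. In the mouse, cones are born before birth and most rods around and after it, so a newborn retina holds many precursors, and outer segments form later.

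The sequences below show a feature that the choice of genes did not use. RefSeq promoters (GRCm38.p6, 250 bases before to 50 after the start of the gene, 300 bases in all) were found for 25 of the 34 measured genes, as 28 promoters. The 9 genes with no entry were Pde6g, Gnat1, Cngb3, Gngt2, Rp1, Rcvrn, Pde6a, Pde6c and Gnb3. Both strands were searched for TAATCC, a core that the CRX homeodomain is known to bind, and for TGCTGA, a part of the site bound by the Maf family, to which NRL belongs. The letters TAATCC stood in 11 of the 28 promoters (39.3%), against 2320 of all 32851 promoters of the table (7.06%). By contrast TGCTGA stood in 6 of 28 (21.4%), against 19.5% of all promoters, and both motifs together in 4 of 28 (14.3%), against 1.36%.

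Sag, Rpgrip1 and Rbp3 are printed because they carry both motifs and are described with all array values below. Crx is printed because its protein is known to bind TAATCC. Capitals mark TAATCC or its reverse complement GGATTA and TGCTGA or its reverse complement TCAGCA, none of which overlap each other here.
Sag (chr1:87803430-87803729, plus strand): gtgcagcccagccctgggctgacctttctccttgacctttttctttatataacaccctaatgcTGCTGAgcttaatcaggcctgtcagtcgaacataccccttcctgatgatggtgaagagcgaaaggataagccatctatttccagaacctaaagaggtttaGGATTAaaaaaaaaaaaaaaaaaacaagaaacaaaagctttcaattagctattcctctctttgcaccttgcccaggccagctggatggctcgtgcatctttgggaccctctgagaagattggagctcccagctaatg
Rpgrip1 (chr14:52110653-52110952, plus strand): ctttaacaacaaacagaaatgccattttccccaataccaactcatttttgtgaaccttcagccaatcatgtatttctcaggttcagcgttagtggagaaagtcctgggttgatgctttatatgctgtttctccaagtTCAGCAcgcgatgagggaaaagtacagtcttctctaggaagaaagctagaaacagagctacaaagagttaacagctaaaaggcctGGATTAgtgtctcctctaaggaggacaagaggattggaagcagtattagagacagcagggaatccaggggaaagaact
Rbp3 (chr14:33953753-33954052, plus strand): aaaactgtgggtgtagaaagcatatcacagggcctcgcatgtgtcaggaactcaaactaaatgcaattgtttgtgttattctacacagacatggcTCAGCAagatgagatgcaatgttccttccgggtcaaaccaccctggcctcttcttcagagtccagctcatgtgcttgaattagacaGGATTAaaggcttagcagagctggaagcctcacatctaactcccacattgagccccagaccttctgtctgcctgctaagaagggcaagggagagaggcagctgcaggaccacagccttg
Crx (chr7:15879906-15880205, minus strand): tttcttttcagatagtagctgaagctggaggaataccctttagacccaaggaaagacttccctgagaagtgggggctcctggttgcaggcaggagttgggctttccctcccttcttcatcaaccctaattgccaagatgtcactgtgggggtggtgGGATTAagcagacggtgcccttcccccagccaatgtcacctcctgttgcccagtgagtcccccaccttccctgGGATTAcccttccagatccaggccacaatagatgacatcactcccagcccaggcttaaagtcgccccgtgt
The Crx promoter held 2 copies of the CRX-type core and none of the NRL-type motif. A match is a stretch of letters, not a measured binding site.

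The first question was whether photoreceptor genes differed between knockout and wild-type retina. None of the 34 passed the test: 0 had an adjusted p under 0.05 in limma, where 0.0% of all tested clusters did, and 0 had an unadjusted p under 0.05, where 3.43% did (1.69% higher in the knockout and 1.74% lower). The adjusted p was 0.9995 for every gene, and the lowest unadjusted p, for Rcvrn, was 0.0656 (limma). Differences are given as knockout minus wild type in log2 units throughout. They ran from -0.23 to 0.18, with 18 genes above 0 and 16 below, and their median was 0.019, against 0.0012 over all tested clusters. The 95% interval of a gene's difference reached 0.15 to 0.44 to either side, and for 31 of the 34 genes it lay wholly between -0.5 and 0.5. Of the 34 genes, 24 lay above the median signal of all tested clusters and 10 below it. Opn1mw, Cnga1, Arr3 and Guca1a also lay below the 25th percentile of signal. In bulk tissue, fewer cells of a type and less RNA per cell cannot be told apart, and this holds for every value below.

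**Figure D1:**
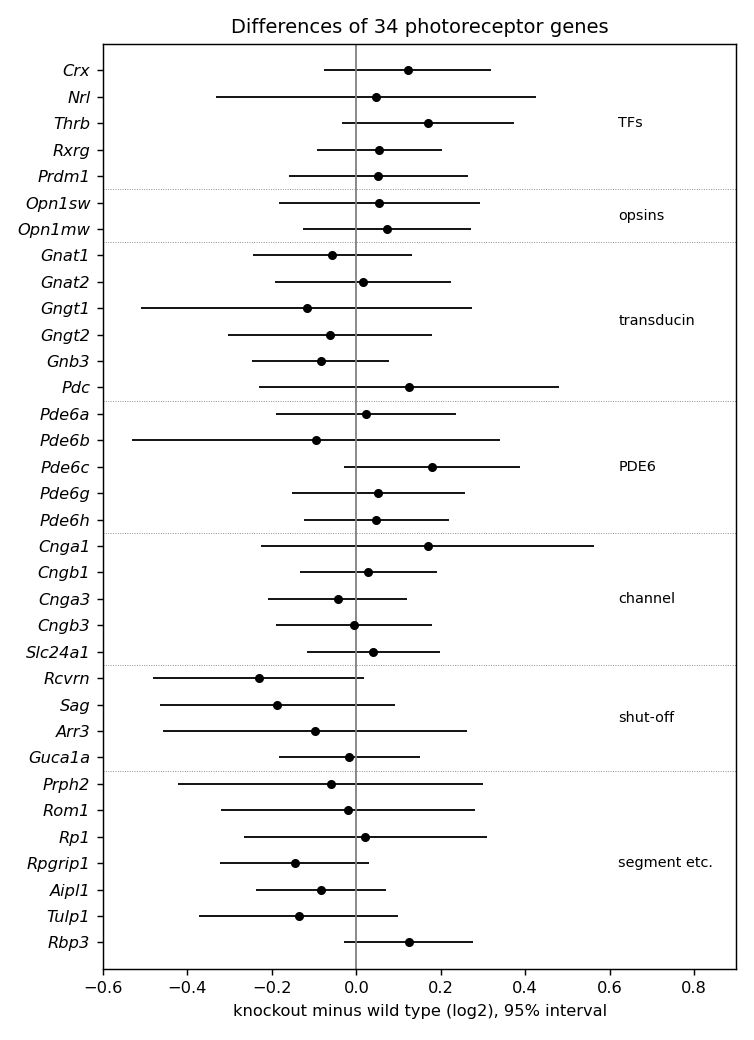
Knockout minus wild-type difference of each of the 34 photoreceptor genes (x axis, log2 units) with its 95% interval from limma (bars), in 7 role groups separated by dotted lines. Points lie between -0.23 and 0.18 and every interval includes 0.

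Transcription factors come first in the programme. Crx, the gene of the cone-rod homeobox factor, read 11.04, 11.03 and 11.32 on the knockout arrays against 10.97, 10.98 and 11.08 on the wild-type arrays. The groups overlapped, since 2 knockout arrays lay below the highest wild-type array, and the difference was 0.12 (SE 0.087). Without knockout replicate 3 it was 0.024. Nrl, which commits precursors to the rod fate, read 8.60, 8.63 and 9.22 in the knockout against 8.62, 8.68 and 9.01 in the wild type. In both genotypes the replicate 3 array stood apart above the other arrays, and the genotype difference of 0.046 (SE 0.17) was far smaller than that gap.

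Thrb, whose thyroid hormone receptor directs M opsin cones, read 10.15, 9.92 and 10.25 in the knockout against 9.93, 9.87 and 10.02 in the wild type. Its difference of 0.17 (SE 0.090) had the same sign in 3 of 3 replicate numbers, with 1 knockout array inside the wild-type range. Without knockout replicate 2 the Thrb difference was 0.26, and without knockout replicate 3 it was 0.097. Rxrg, the retinoid X receptor of developing cones, read 10.46, 10.65 and 10.59 in the knockout against 10.49, 10.51 and 10.53 in the wild type, with the lowest array of all in the knockout. Its difference of 0.055 (SE 0.065) was 0.015 without knockout replicate 2 and 0.11 without knockout replicate 1. Prdm1, whose product BLIMP1 keeps precursors from becoming bipolar cells, read 11.71, 11.81 and 11.94 in the knockout against 11.59, 11.81 and 11.91 in the wild type, so the groups covered nearly the same range. All 5 measured factors lay above 0 (0.046 to 0.17), also with median centring and with cyclic loess, but 3 of 5 did so without knockout replicate 3 or without wild-type replicate 1, and none passed the test.

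**Figure D2:**
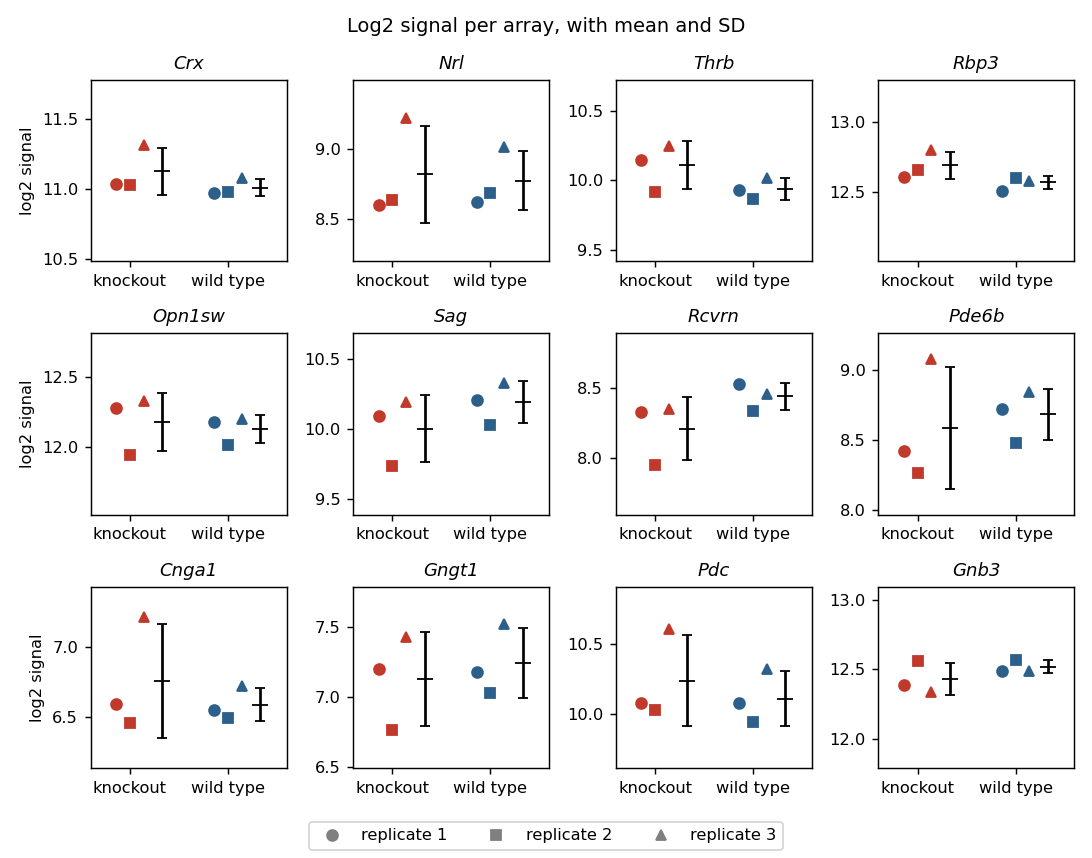
Log2 signal (y axis, the same span in each panel) of 12 photoreceptor genes on each array, knockout left and wild type right, with the replicate number as the symbol and the mean and SD (n = 3) beside each group. Knockout and wild type overlap in each panel except that of Rbp3. In each panel except those of Rbp3 and Gnb3, replicate 3 lies above replicate 2 in both genotypes.

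Opsins are the light receptors. The short-wavelength cone opsin gene Opn1sw read 12.28, 11.94 and 12.33 in the knockout against 12.18, 12.01 and 12.20 in the wild type. Replicate 2 was the lowest array of each genotype, and the difference was 0.055 (SE 0.10). The middle-wavelength cone opsin gene Opn1mw, which in the mouse is switched on after birth, read 7.00, 6.77 and 6.73 in the knockout against 6.65, 6.79 and 6.84 in the wild type. Its difference of 0.073 (SE 0.087) rested on knockout replicate 1 and was -0.012 without that array.

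Among the 6 genes of transducin and of phosducin, 2 lay above 0 and 4 below, but 4 lay above 0 without knockout replicate 2 and 5 without wild-type replicate 3. Gnb3, the transducin beta subunit of cones, read 12.39, 12.56 and 12.34 in the knockout against 12.49, 12.57 and 12.49 in the wild type, a difference of -0.084 (SE 0.071). Its highest array in each genotype was replicate 2. The difference was -0.15 without knockout replicate 2 and -0.040 without knockout replicate 3. Gngt1, the gamma subunit of rod transducin, read 7.20, 6.76 and 7.43 in the knockout against 7.18, 7.03 and 7.52 in the wild type. Its arrays spread over more than its genotype difference of -0.12 (SE 0.17), which was 0.066 without knockout replicate 2. Pdc encodes phosducin, which binds the beta and gamma subunits of transducin, and read 10.08, 10.03 and 10.61 in the knockout against 10.08, 9.94 and 10.32 in the wild type. The difference of Pdc was 0.12 (SE 0.16) and was -0.063 without knockout replicate 3. Gnat1 and Gnat2, the alpha subunits of rod and cone transducin, and Gngt2, the cone gamma subunit, differed by -0.057, 0.016 and -0.063.

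Phosphodiesterase 6 breaks down cyclic GMP, and 4 of its 5 genes lay above 0, or 2 of 5 without knockout replicate 1. The cone catalytic gene Pde6c had the highest difference of all 34, with 8.55, 8.69 and 8.92 in the knockout against 8.51, 8.59 and 8.53 in the wild type. Its difference of 0.18 (SE 0.092) had the same sign in 3 of 3 replicate numbers, the groups overlapped by 1 array, and it was 0.079 without knockout replicate 3. The rod catalytic gene Pde6b varied most within a genotype of all 34, at 8.42, 8.26 and 9.08 in the knockout against 8.72, 8.48 and 8.84 in the wild type. Its wild-type arrays all lay within the knockout range, and its difference was -0.096 (SE 0.19). Pde6g, the inhibitory subunit of rods, read 10.70, 10.42 and 10.60 in the knockout against 10.66, 10.44 and 10.46 in the wild type, with replicate 1 highest in each genotype and a difference of 0.052 (SE 0.090). Pde6a, the other catalytic subunit of rods, and Pde6h, the inhibitory subunit of cones, differed by 0.022 and 0.048.

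The cyclic nucleotide-gated channel carries the light-sensitive current. Cnga1, its rod alpha subunit, read 6.59, 6.46 and 7.22 in the knockout against 6.55, 6.49 and 6.72 in the wild type. Knockout replicate 3 stood above the other arrays, and the difference of 0.17 (SE 0.17) was -0.063 without it. Cngb3, the cone beta subunit, read 9.96, 9.77 and 9.90 in the knockout against 9.91, 9.75 and 9.99 in the wild type, and the genotypes differed by -0.0053 (SE 0.082), or 0.0041 with cyclic loess. Cnga3, the cone alpha subunit, read 8.68, 8.50 and 8.72 in the knockout against 8.72, 8.63 and 8.68 in the wild type, an overlap that left a difference of -0.045 (SE 0.072). The rod beta subunit gene Cngb1 and the sodium, calcium and potassium exchanger gene Slc24a1 differed by 0.029 and 0.040. The 4 clusters of Cngb1 ran from -0.078 to 0.091 and so did not share a sign.

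Shut-off proteins and calcium sensors end the light response, and all 4 measured genes of this group lay below 0, by a median of -0.14. This also held with median centring and with cyclic loess, whereas 2 of 4 lay below 0 without knockout replicate 2 and 3 of 4 without wild-type replicate 1 or 3. Rcvrn, the gene of the calcium sensor recoverin, read 8.33, 7.95 and 8.35 in the knockout against 8.53, 8.34 and 8.46 in the wild type. It averaged 8.21 ± 0.23 in knockout retinae against 8.44 ± 0.098 in wild-type retinae (SD, n = 3 each), a difference of -0.23 (SE 0.11) and the lowest of the 34. Of the knockout arrays 1 lay inside the wild-type range, the others below it, and without knockout replicate 2 the difference was -0.10. Sag, the gene of rod arrestin, read 10.09, 9.73 and 10.19 in the knockout against 10.21, 10.03 and 10.33 in the wild type. The knockout arrays of replicates 1 and 3 lay inside the wild-type range. The difference of -0.19 (SE 0.12) had the same sign in 3 of 3 replicate numbers and was -0.051 without knockout replicate 2, -0.28 without knockout replicate 3 and -0.12 without wild-type replicate 3. Cone arrestin (Arr3) and the guanylate cyclase activator gene Guca1a differed by -0.098 and -0.016. Both were dim, below the 25th percentile of signal over all tested clusters, and Rcvrn lay below the median signal.

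Of the 7 genes for the outer segment, the connecting cilium, a chaperone and the visual cycle, 2 lay above 0 and 5 below, but 4 lay above 0 without knockout replicate 2 or without wild-type replicate 3. Rbp3 encodes the interphotoreceptor retinoid-binding protein, which carries retinoids between photoreceptors and pigment epithelium, and read 12.61, 12.66 and 12.80 in the knockout against 12.51, 12.60 and 12.58 in the wild type. For 1 of the 34 genes, Rbp3, all knockout arrays lay above all wild-type arrays, and for 0 below. Of the tested clusters 4.08% were separated upward and 4.35% downward, 8.43% in all. The lowest knockout array stood only slightly above the highest wild-type array, and the difference was 0.12 (SE 0.067), or 0.070 without knockout replicate 3. Rpgrip1, which anchors RPGR at the connecting cilium, read 10.42, 10.22 and 10.28 in the knockout against 10.56, 10.44 and 10.36 in the wild type. The ranges of Rpgrip1 overlapped by 1 array in each genotype, and its difference of -0.15 (SE 0.078) was -0.091 without wild-type replicate 1. The tetraspanin genes Prph2 and Rom1, which shape outer segment discs, differed by -0.061 and -0.020. Rp1, a microtubule protein of the axoneme, differed by 0.022, Tulp1, which serves transport to the outer segment, by -0.14, and Aipl1, a chaperone of phosphodiesterase 6, by -0.084.

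Within the same replicate number, 7 of the 34 genes lay higher in the knockout in all 3 pairs and 5 lower, together 35.3%, where 32.4% of tested clusters kept 1 sign. With the replicate number as a block, 6 genes (17.6%) had an unadjusted p under 0.05 in limma, against 8.81% of tested clusters (4.46% higher and 4.36% lower), and 0 had an adjusted p under 0.05, against 0.00427% of tested clusters. Of these 6, Rcvrn, Sag, Rpgrip1 and Tulp1 lay lower and Thrb and Rbp3 higher. Their adjusted p in the blocked limma fit ran from 0.514 (Rcvrn and Sag) to 0.566 (Rbp3).

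A second question was whether genes active in young precursors and genes of mature phototransduction lay differently in the knockout. The early list held 10 measured genes (Crx, Nrl, Prdm1, Thrb, Rxrg, Rcvrn, Rbp3, Aipl1, Opn1sw and Gngt2) and the late list 15 (Gnat1, Gngt1, Pde6a, Pde6b, Pde6g, Cnga1, Cngb1, Sag, Pdc, Rom1, Prph2, Rp1, Guca1a, Slc24a1 and Opn1mw). Early genes had a median difference of 0.053, with 7 above 0 and 3 below, and late genes a median of 0.022, with 8 above 0 and 7 below. Without knockout replicate 3 these medians were -0.013 and -0.063.

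Each gene was then set relative to its own mean over the 6 arrays, and the mean of the early genes was subtracted from that of the late genes. Whether this value tracks maturity was not tested. The value was 0.048, -0.113 and 0.026 log2 units on the knockout arrays against 0.056, -0.042 and 0.024 on the wild-type arrays. Replicate 1 was the highest and replicate 2 the lowest array in each genotype. Knockout replicates 1 and 3 lay inside the wild-type range, and knockout replicate 2 lay below all wild-type arrays. The knockout mean was -0.013 ± 0.087 and the wild-type mean 0.013 ± 0.050 (SD, n = 3 each), a difference of -0.026 that was smaller than either SD. By replicate number the difference was -0.0082, -0.071 and 0.0013, so it did not keep 1 sign.

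Rod and cone genes were also set apart. The 10 measured rod genes had a median difference of 0.025 (6 above 0 and 4 below) and the 12 cone genes of 0.032 (7 above 0 and 5 below), with 0 called in either list. Rod genes averaged -0.027, -0.176 and 0.213 on the knockout arrays against -0.006, -0.105 and 0.101 on the wild-type arrays, relative to all 6 arrays. Cone genes averaged 0.033, -0.072 and 0.076 against -0.034, -0.062 and 0.059. In both lists and both genotypes replicate 3 was the highest array and replicate 2 the lowest, and the rod list spread over the wider range.

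**Figure D3:**
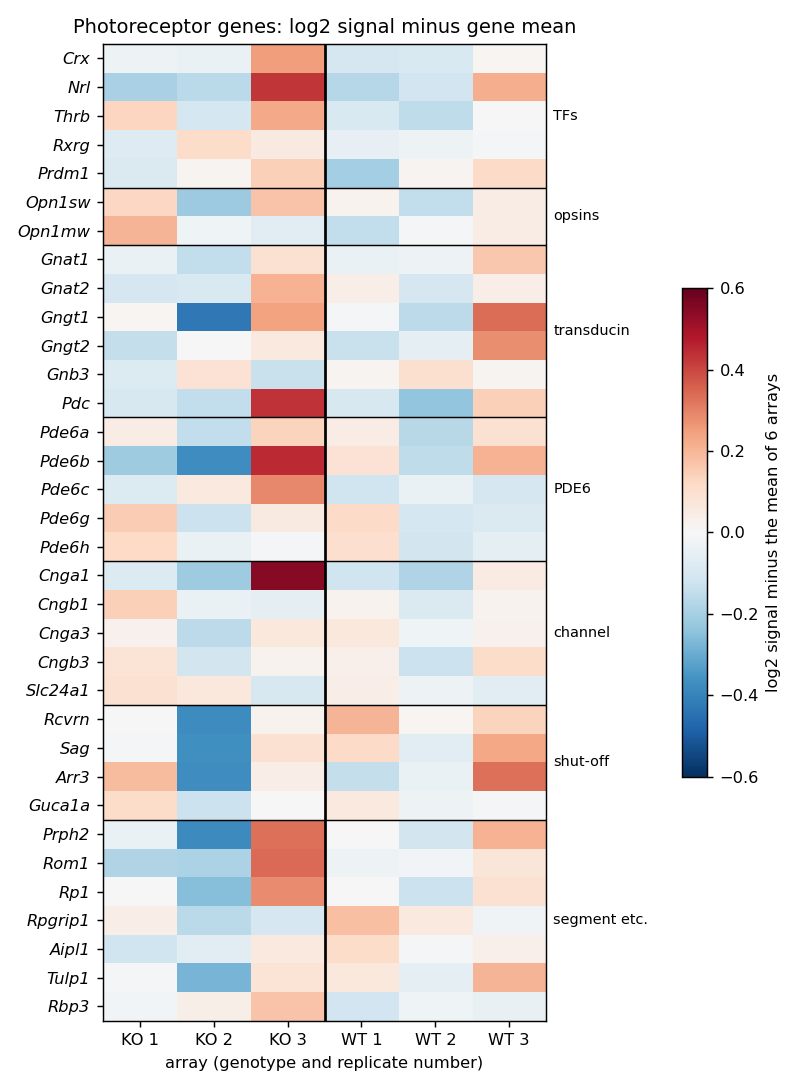
Log2 signal of each gene on each array minus the mean of its 6 arrays (colour), with knockout arrays left of the black line and wild-type arrays right of it, and role groups named at the right. Red prevails in the replicate 3 column and blue in the replicate 2 column of each genotype.

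For these genes the arrays thus lay further apart by replicate number than by genotype. The tests of the replicate number were added after the values had been seen. The labels do not say what the numbers mark. Sample titles also carry a code from P1 to P6, with no meaning given. Arrays with the same replicate number hold adjacent codes, the knockout first. The SD within genotype had a median of 0.136 over the 34 genes and 0.0893 over all tested clusters, and 28 of the 34 lay above that median, where 50.0% of clusters do. With the replicate number in the fit, the SD left over was 0.0752 for the 34 genes and 0.0595 for all clusters. The genes with the widest spread within genotype were Pde6b (SD 0.335), Cnga1 (0.300) and Gngt1 (0.298), all rod genes of the late list.

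In limma, with genotype in the fit, 22 of the 34 genes (64.7%) had an unadjusted p under 0.05 for the replicate number, against 23.2% of tested clusters. After correction the count was 0 of 34 (smallest adjusted p, 0.138), against 0.0128% of tested clusters. With a mean-variance trend, 10 of the 34 passed at an adjusted p under 0.05 and 4.23% of all clusters did. Among clusters above the median signal, 10 of the 24 photoreceptor genes tested passed, against 9.45% of the clusters. Both of these fits called 9 genes in common, and the 10 called with the trend were Nrl, Opn1sw, Pde6b, Sag, Prph2, Rp1, Gngt1, Prdm1, Pdc and Tulp1.

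Replicates 3 and 2 were the highest and lowest arrays for the mean of the 34 genes in each genotype. This pair was compared after the values had been seen, so its gap over these genes is a description, not a test. Replicate 3 lay above replicate 2 for 30 of the 34 genes, against 12355 of 23410 tested clusters, with a median of 0.21 log2 units. Late genes had a median of 0.31 and early genes of 0.20, and the median over all tested clusters was 0.0068. Pde6b had the widest gap at 0.59 (SE 0.13), which is 1.51-fold, followed by Gngt1 at 0.58 (SE 0.077), Prph2 at 0.51 (SE 0.093) and Cnga1 at 0.50 (SE 0.13). Nrl differed by 0.46 (SE 0.077), or 1.38-fold. Gnb3 (-0.15), Slc24a1 (-0.099), Rxrg (-0.018) and Rpgrip1 (-0.0066) were the 4 genes below 0.

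The pattern was present in each genotype taken alone. In knockout mice replicate 3 minus replicate 2 had a median of 0.26 over the 34 genes, and in wild-type mice of 0.13. Replicate 3 was the higher array in both genotypes for 26 of the 34 genes, where 34.6% of tested clusters had this order, and the lower in both for 2, Gnb3 and Slc24a1, where 29.2% had that order. Across the 34 genes the gap in the knockout and the gap in the wild type, which share no array, had Pearson's r of 0.726 and Spearman's rho of 0.715, against 0.467 and 0.395 across all tested clusters. Genes are not independent replicates, so these values describe the 4 arrays only.

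**Figure D4:**
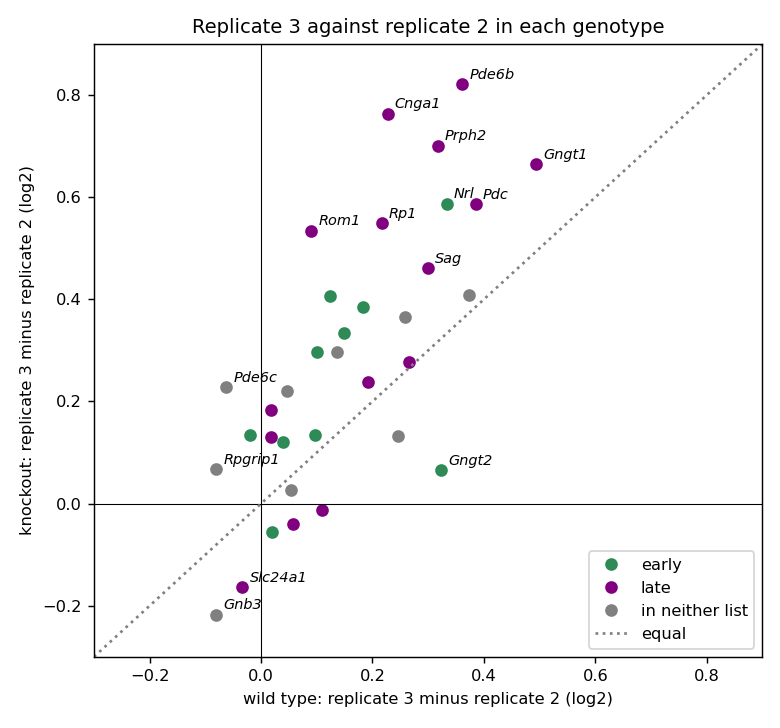
Replicate 3 minus replicate 2 (log2 units) in knockout mice (y axis) and wild-type mice (x axis) for each of the 34 genes, with early genes green, late genes purple and others grey, and a dotted line of equal values. Most points lie in the upper right field, led by Pde6b, Cnga1, Prph2 and Gngt1, while Gnb3 and Slc24a1 lie below 0 in both genotypes.

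Other signals moved with the replicate number too. Xist, the RNA of the inactive X chromosome, read 12.58, 12.54 and 6.26 on the knockout arrays against 12.73, 12.54 and 6.52 on the wild-type arrays. The Y-linked gene Eif2s3y read 5.08, 7.66 and 10.03 in the knockout against 5.49, 7.76 and 9.39 in the wild type. Replicate 1 thus carried the female pattern, replicate 3 the male pattern and replicate 2 both signals, in each genotype, although the protocol speaks of both retinae of an animal. Sex and any other property that goes with the number cannot be told apart in these arrays.

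Retinal ganglion cell genes, which mark the first neurons born, ran the other way. Replicate 3 lay below replicate 2 for 9 of 9 measured genes, with a median of -0.13, and in both genotypes for 7 of them. Their list averaged -0.096, 0.155 and -0.127 on the knockout arrays against -0.044, 0.081 and 0.030 on the wild-type arrays, so replicate 2 was the highest array of each genotype. Among them the neurofilament gene Nefl read 12.29, 12.58 and 12.16 in the knockout against 12.38, 12.50 and 12.47 in the wild type. Genes of progenitors and cycling cells had a median of -0.036, with 5 of 14 above 0, and bipolar cell genes of -0.0033, with 5 of 10 above 0. Pigment epithelium genes had a median of -0.061, with 1 of 8 above 0, and Muller glia genes of 0.032, with 4 of 8. Other lists lay on the side of the photoreceptor genes: lens genes had a median of 0.10, with 8 of 11 above 0 and 7 in both genotypes, and amacrine and horizontal cell genes of 0.067, with 6 of 10 above 0 and 5 in both genotypes. Endothelial genes had a median of 0.15, with 8 of 8 above 0 but 2 in both genotypes, since their median was 0.42 in knockout mice and -0.092 in wild-type mice. The part of cell composition in the replicate pattern was not tested.

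**Figure D5:**
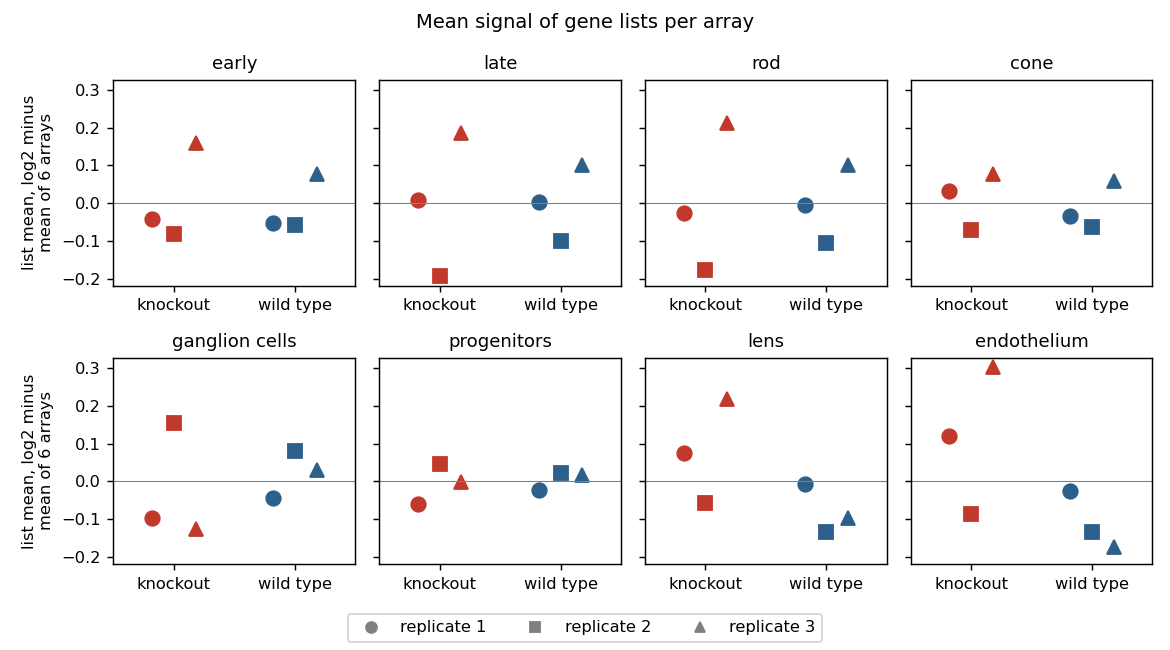
Mean log2 signal of 8 gene lists on each array relative to the mean of 6 arrays (y axis), knockout left and wild type right, with the replicate number as the symbol. Replicate 3 is the highest array for early, late, rod and cone genes in both genotypes and replicate 2 the highest for ganglion cell genes, while lens and endothelial genes are highest on knockout replicate 3.

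Photoreceptor genes outside the 36 were counted as well. Of 11 measured regulators of photoreceptor fate, 6 lay above 0 and 5 below, with a median of 0.014 and 0 with an unadjusted p under 0.05. Otx2, which acts upstream of Crx, read 13.08, 13.06 and 13.29 in the knockout against 13.13, 13.11 and 13.19 in the wild type, with replicate 3 again the highest of each genotype. The regulator Rorb, a nuclear receptor needed for rods, differed by 0.069 (SE 0.054). Of 25 further photoreceptor genes, 9 lay above 0 and 16 below, with a median of -0.020, and 1 had an unadjusted p under 0.05. That gene, Cacna1f, encodes the calcium channel of photoreceptor synapses and read 8.45, 8.45 and 8.65 in the knockout against 8.71, 8.71 and 8.80 in the wild type (difference -0.23, SE 0.072; limma, adjusted p = 0.9995). The replicate pattern recurred here, as replicate 3 lay above replicate 2 for 20 of the 25, with a median of 0.18.

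Markers of lens, endothelium and pigment epithelium, tissues beside or within the retina, were set beside these values. Of 11 lens genes 9 were above 0, with a median of 0.10, and their list averages ran from -0.058 to 0.217 on knockout arrays and from -0.133 to -0.006 on wild-type arrays. Of 8 endothelial genes 7 were above 0, with a median of 0.15 and averages from -0.087 to 0.302 on knockout arrays and from -0.175 to -0.026 on wild-type arrays. In both lists knockout replicate 2 lay within the wild-type range. Cdh5, the gene of endothelial cadherin, differed by 0.54 (SE 0.14) and the crystallin gene Cryaa by 0.53 (SE 0.22), with replicate 3 the highest knockout array for both. The endothelial genes Emcn and Flt1 differed by 0.50 (SE 0.14) and 0.35 (SE 0.14). Pigment epithelium genes had 6 of 8 above 0, with a median of 0.053, and averages from -0.099 to 0.221 on knockout arrays and from -0.111 to 0.037 on wild-type arrays. Among them Tyr differed by 0.19 (SE 0.071). In limma 3 of 8 endothelial, 1 of 11 lens and 1 of 8 pigment epithelium genes had an unadjusted p under 0.05, against 3.43% of tested clusters. Arrays did not overlap for 3, 2 and 1 genes of these lists, against 8.43% of tested clusters. None of these genes passed correction (limma, adjusted p = 0.9995 for Cdh5 and Cryaa). Their part in the differences of the photoreceptor genes was not tested.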

How the data were processed

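The authors deposited log2 signals per transcript cluster of Affymetrix Mouse Gene 1.0 ST arrays, made with Affymetrix Expression Console and RMA per the submitters' processing notes, which also name Transcriptome Analysis Console. RMA corrects background and sets all arrays to 1 distribution, which takes out any shift common to most genes. The sources used here give no software versions. Medians of the arrays ran from 7.84 to 7.91. Precision is limited by having 3 arrays in each genotype.

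Of 35557 clusters, 23410 with at least 1 annotated gene were tested with no filter on signal: 21789 had 1 gene, 1621 several, and 12147 were unnamed here. Entrez identifiers of 21698 single-gene clusters matched the RefSeq gene table, which changed 0 symbols.

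The genotypes were compared with lmFit and eBayes (limma 3.58.1, R 4.3.3), with Benjamini-Hochberg adjustment over all tested clusters and a threshold of 0.05. The replicate number was tested by limma's F test, with genotype in the fit. Both fits were tested on simulated data. An exact permutation test of 3 against 3 cannot go below p = 0.1, so none was used. Tables and figures used pandas 2.3.3 and matplotlib 3.10.9 in Python 3.11.15. Samples with the same replicate number deviated together from their group means, with correlations of 0.476, 0.485 and 0.455, so the number also entered a second, blocked fit. The numbers come from the sample labels. Signal served to call genes bright or dim, but is not read as an amount of RNA between genes, since probes differ in brightness.

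Members, lists and tests were chosen with earlier results of these data known. Genes given with all 6 array values were the transcription factors, the brightest gene and the largest difference in each direction of each role group, genes whose arrays did not overlap, and the 3 with the widest spread. Of the other lists, genes with an unadjusted p under 0.05 or, where a list had none, its 2 genes of highest signal could be named. For the difference between genotypes, amacrine and horizontal cell genes had 8 of 10 above 0, Muller glia genes 7 of 8 and bipolar cell genes 7 of 10. Progenitor and cycling cell genes had 6 of 14 above 0 and ganglion cell genes 3 of 9. Alternatives covered scaling, filters, variance model, block, clusters per gene and single arrays left out.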

Additional observations from a re-analysis of the deposited data

How the results depend on the processing

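Under 17 alternatives for the comparison of genotypes (median centring, cyclic loess, both filters on dim signal, every cluster, a variance trend, array weights, the replicate block, the mean over a gene's clusters, each array left out, and, added after seeing the data, replicate 2 or replicate 3 left out of both genotypes), 0 photoreceptor genes passed an adjusted p of 0.05 in limma. The replicate block also called 0 and left the median difference at 0.019. When arrays or replicate numbers were left out, the median over all genes ran from -0.063 to 0.065, of early genes from -0.013 to 0.11, of late genes from -0.063 to 0.071, of rod genes from -0.090 to 0.069, of cone genes from -0.017 to 0.064, and late minus early from -0.057 to 0.024. With the filters on dim signal, late minus early was -0.045 above the 25th percentile and -0.070 above the median, against -0.026 without a filter. For the replicate number, 10 genes were called with the variance trend and 10 above the median signal, against 0 otherwise, which includes each array left out in turn (0 to 0), and the median of replicate 3 minus replicate 2 then ran from 0.16 to 0.24. The cause of the extra calls was not tested.

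Of the 20 genes given with all array values, 11 changed sign at least once and 9 did not, and no difference was called on either side. Without knockout replicate 3 the sign turned for Nrl (-0.15), Opn1sw (-0.017), Cnga1 (-0.063), Prdm1 (-0.0087) and Pdc (-0.063). Without knockout replicate 2 it turned for Pde6b (0.067), Cnga3 (0.023), Cngb3 (0.049) and Gngt1 (0.066), and without knockout replicate 1 for Opn1mw (-0.012) and Pde6g (-0.010). Without wild-type replicate 1 it turned for Nrl (-0.028), Cngb3 (0.0082) and Prdm1 (-0.036), without wild-type replicate 2 for Nrl (-0.00050) and Opn1sw (-0.0037), and without wild-type replicate 3 for Cngb3 (0.050) and Gngt1 (0.021). Without replicate 3 of both genotypes it turned for Nrl (-0.034) and Cngb3 (0.038), and with cyclic loess for Cngb3 (0.0041). Over single arrays and replicate numbers left out, the differences of these 11 ran from -0.15 to 0.17 for Nrl, -0.017 to 0.17 for Opn1sw, -0.012 to 0.17 for Opn1mw, -0.34 to 0.067 for Pde6b, -0.010 to 0.13 for Pde6g, -0.063 to 0.32 for Cnga1, -0.087 to 0.023 for Cnga3, -0.074 to 0.050 for Cngb3, -0.27 to 0.066 for Gngt1, -0.036 to 0.12 for Prdm1 and -0.063 to 0.23 for Pdc. The other 9 ran from 0.024 to 0.17 for Crx, 0.097 to 0.26 for Thrb, 0.015 to 0.11 for Rxrg, 0.071 to 0.27 for Pde6c, 0.070 to 0.16 for Rbp3, -0.15 to -0.040 for Gnb3, -0.30 to -0.10 for Rcvrn, -0.28 to -0.051 for Sag and -0.20 to -0.091 for Rpgrip1. Over the 34 genes, the 95% intervals from the fit without the replicate block reached 0.15 to 0.44 to either side of the difference. With 3 arrays per genotype, that fit could not exclude differences inside a gene's interval.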
